A study of Mus musculus with 6 samples.

Results

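The genes described here are 10 genes of the smooth muscle contractile apparatus that peritubular myoid cells of the testis use: *Acta2*, *Actg2*, *Myh11*, *Myl9*, *Mylk*, *Cnn1*, *Tagln*, *Tpm2*, *Lmod1* and *Des*. They were found by gene symbol in a table of 54532 genes, all 10 were present, and all 10 passed the minimum of 0.5 FPKM on average over the samples, as did 16206 genes in all. FPKM are fragments scaled to gene length and to library size, so levels of different genes can be set beside each other. Whole mouse testes at 5 days postpartum (dpp) were sequenced as poly(A) RNA, 3 from controls (Ctrl) and 3 from conditional knockouts (cKO), with 1 library each. In the cKO mice the Cre recombinase was under the control of *Vasa*, a germ cell gene, and the *Srsf1* genotype was Fl/del, with the floxed exons removed in germ cells. The alleles of the Ctrl mice are not given in the sources used here. The comparison asked which transcript levels differ when the splicing factor SRSF1 is missing from germ cells. The contractile genes are not germ cell genes, so they were read out in cells in which this Cre is not meant to act. An inherited del allele would be carried by those cells too, so they cannot be taken as intact for *Srsf1*. An effect of that allele there cannot be told apart from an effect of the germ cells.

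Peritubular myoid cells are flat, smooth muscle-like cells that wrap the seminiferous tubules, lay down the basement membrane together with Sertoli cells and, in the adult, contract to move sperm and fluid along the tubule. In smooth muscle, calcium-bound calmodulin activates myosin light chain kinase, the kinase phosphorylates the regulatory light chain, and smooth muscle myosin then pulls on filaments of alpha and gamma smooth muscle actin. Tropomyosin, calponin and transgelin lie along the actin filaments, leiomodin starts new ones, and desmin forms the intermediate filaments that tie the apparatus to the cell. Vascular smooth muscle and pericytes use the same proteins, so whole testis values sum these cells with the peritubular ones. In such bulk samples, fewer cells of a type and less RNA per cell cannot be told apart.

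The deleted gene and the tissue were checked first. *Srsf1* was at 82.1, 89.1 and 88.4 FPKM in Ctrl testes 1 to 3, against 45.1, 46.3 and 51.6 FPKM in cKO testes 1 to 3. The groups did not overlap, with a log2 fold change of -0.85 ± 0.09 (SE) and an adjusted p of 0.058 in limma with Benjamini-Hochberg adjustment. No tested gene had a lower adjusted p, but this adjustment can give the same value to several genes. The extraction text of the labels names retinas, whereas tissue and source are given as testis. Sertoli cell markers summed to between 2258 and 3355 FPKM in every sample, and the Sertoli cell gene *Amh* was at 257 FPKM or more in each. The depth, recovered from the FPKM as whole reads, lay between 15448191 and 18964743 reads. Germ cell markers, which include *Ddx4*, *Dazl* and *Mael*, summed to between 252 and 551 FPKM in Ctrl and between 87.6 and 127 FPKM in cKO.

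None of the 10 contractile genes passed an adjusted p of 0.05 in limma, lower or higher, and neither did any other tested gene, so the background was 0.0% in each direction. The paper, with DESeq2 on counts of these samples at the same threshold, reported many genes in both directions, more of them lower. The 0.0% therefore belongs to this fit and does not mean that no gene differed. At an unadjusted p under 0.05, *Acta2*, *Actg2*, *Myh11* and *Mylk* were lower and *Des* was higher in cKO. That is 4 of 10 lower beside 9.31% of all tested genes, and 1 of 10 higher beside 6.6%. The groups did not overlap for *Acta2*, *Myh11*, *Myl9* and *Mylk*, all lower in cKO, against 12.8% of all tested genes, and for *Des*, higher in cKO, against 10.3%. The other 5 genes overlapped between the groups. The log2 fold change was below 0 for 8 of the 10 genes, where 49.5% of all genes were below 0, and its median was -0.19, against 0.0027 over all genes. The 4 genes lower at an unadjusted p under 0.05 became 2 without Ctrl 1 or without Ctrl 2, and 1 without Ctrl 3, without cKO 1 or without cKO 2. The 1 higher gene, *Des*, became 0 without Ctrl 2, without Ctrl 3, without cKO 3 and with no mean-variance trend. The shares of 9.31% and 6.6% are for the fit on all samples, and those of the alternatives are not given here. The labels do not say that the replicates came from separate animals, the study's methods call them biological replicates, and p-values here measure the spread among these samples.

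**Figure D1:**
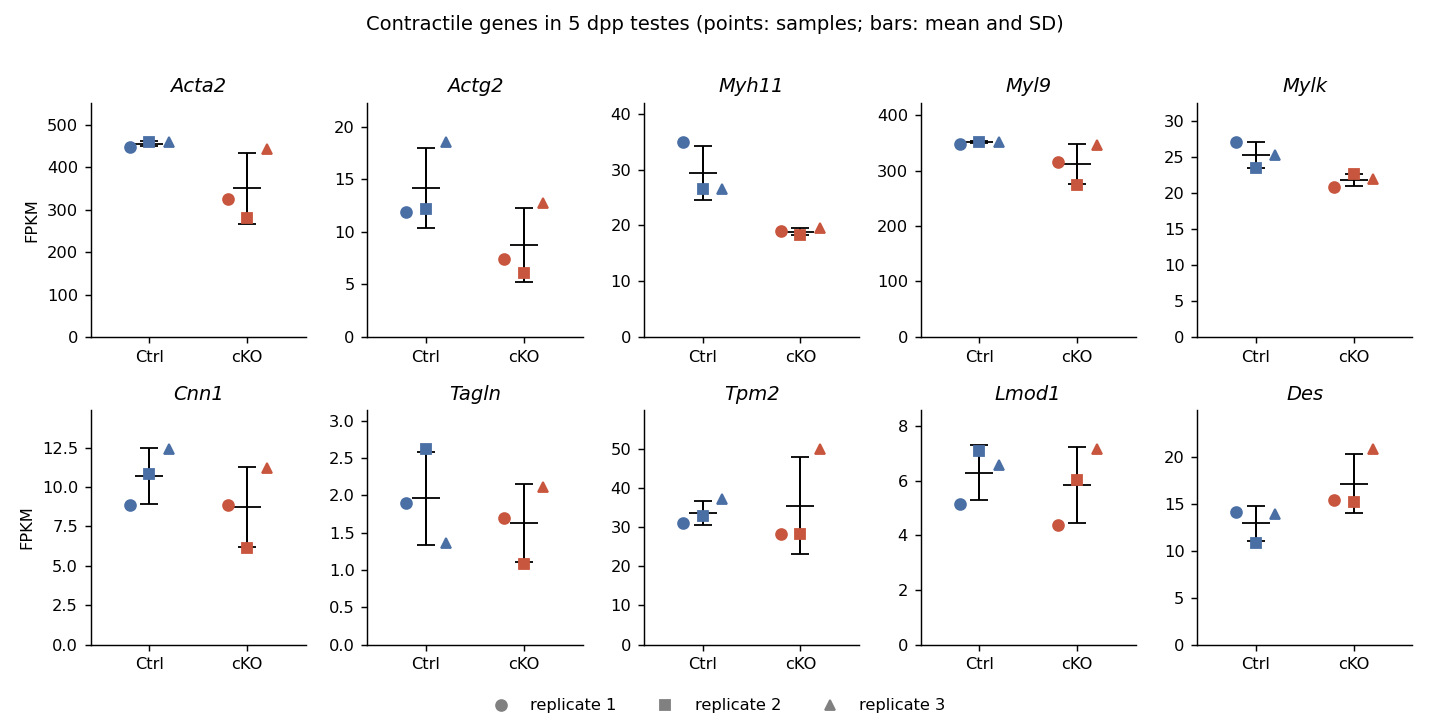
FPKM (y axes, each from 0) of the 10 contractile genes in the 3 Ctrl (blue) and 3 cKO (red) testes, with symbols for the replicate numbers and black bars for the mean and SD. *Acta2*, *Myh11*, *Myl9* and *Mylk* have every cKO sample under every Ctrl sample, *Des* has every cKO sample above, and the cKO 3 triangle is the highest red point in 9 of the 10 panels.

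The 2 smooth muscle actins are near-identical proteins made from separate genes, and the first 90 coding bases of each, in GRCm38 by the GENCODE release 21 models, show how far their transcripts differ. They are shown because a read could be assigned to the wrong actin only where the sequences match. Both stretches are in exon 2 of 9, on the minus strand, at chr19:34252464-34252553 for *Acta2* and chr6:83527352-83527441 for *Actg2*. Capitals mark bases that differ from, or have no partner in, the other gene.
Acta2: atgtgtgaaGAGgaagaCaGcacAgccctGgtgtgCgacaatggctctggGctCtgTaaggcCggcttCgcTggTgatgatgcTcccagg
Actg2: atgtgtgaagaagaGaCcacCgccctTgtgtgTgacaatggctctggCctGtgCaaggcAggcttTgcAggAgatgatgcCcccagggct

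Over the whole coding sequence the 2 actin genes were 84.4% identical, and 0% of 50-base windows of *Acta2* transcripts occurred in *Actg2* transcripts. The same share was 0% for *Acta2* against *Acta1*, *Actc1* and *Actb*, and 0.352% against *Actg1*. Reads of the smooth muscle actins were therefore seldom identical with a stretch of another actin.

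*Acta2*, alpha smooth muscle actin, had the highest level of the 10 genes. It lies at chr19:34241090-34255336 on the minus strand in the deposited table. *Acta2* was at 449, 459 and 459.8 FPKM in Ctrl testes 1 to 3, against 325, 281 and 444 FPKM in cKO testes 1 to 3. The 3 Ctrl testes lay within 1.02-fold of each other, whereas the cKO testes spread over 1.58-fold, and cKO 3 lay just under the lowest Ctrl value. The mean was 456 ± 6.01 FPKM in Ctrl and 350.03 ± 84.5 FPKM in cKO (SD, n = 3 each). This gave a log2 fold change of -0.41 ± 0.17 (SE), at an adjusted p of 0.308 in limma, and it was -0.59 without cKO 3 and -0.26 without cKO 2.

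*Actg2*, the gamma actin of visceral smooth muscle, differed by more on the log2 scale, at a far lower level. It was at 11.9, 12.2 and 18.6 FPKM in Ctrl testes 1 to 3, against 7.43, 6.08 and 12.8 FPKM in cKO testes 1 to 3. Replicate 3 was the highest sample of both groups, and cKO 3 lay above Ctrl 1 and Ctrl 2, so the groups overlapped. *Actg2* had the most negative log2 fold change of the 10 genes, -0.67 ± 0.27 (SE), with an adjusted p of 0.298 in limma. It was -0.95 without cKO 3, -0.60 without cKO 1, -0.48 without Ctrl 3 and -0.47 without cKO 2, and in the last 3 of these *Myh11* was the more negative, at -0.60, -0.66 and -0.57.

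*Myh11*, the smooth muscle myosin heavy chain and the motor of the apparatus, differed the most clearly from Ctrl relative to its spread. It lies at chr16:14194535-14291372 on the minus strand. *Myh11* was at 35.0, 26.6 and 26.5 FPKM in Ctrl testes 1 to 3, against 18.9, 18.2 and 19.6 FPKM in cKO testes 1 to 3. All cKO testes lay between 62.0% and 66.6% of the Ctrl mean, close to one another, and here Ctrl 1 was the sample that stood apart. The log2 fold change was -0.60 ± 0.12 (SE), with the lowest adjusted p of the 10 genes, 0.107 in limma. With protein-coding genes only in the fit, *Myh11* passed the threshold with an adjusted p of 0.049, as the only contractile gene, where 1.33% of genes were called lower and 0.28% higher. In limma voom on the recovered reads its adjusted p was 0.054, and 0 of the 10 genes passed where 0.376% of all genes were called lower and 0.136% higher.

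*Myl9*, the regulatory light chain of that myosin, had the next highest level after *Acta2*. It was at 349, 352 and 352 FPKM in Ctrl testes 1 to 3, against 316, 274 and 346 FPKM in cKO testes 1 to 3. The Ctrl samples lay within 1.01-fold of each other and every cKO sample lay under them, with cKO 3 the nearest. Its log2 fold change, -0.17 ± 0.11 (SE), had an adjusted p of 0.483 in limma, and it was -0.086 without cKO 2.

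*Mylk* codes for myosin light chain kinase, which switches the apparatus on. It was at 27.1, 23.5 and 25.3 FPKM in Ctrl testes 1 to 3, against 20.9, 22.6 and 22.0 FPKM in cKO testes 1 to 3. The groups did not overlap, but cKO 2 and Ctrl 2 lay within 1 FPKM of each other. This gave a log2 fold change of -0.20 ± 0.08 (SE), at an adjusted p of 0.305 in limma. Of the exon bases of *Mylk*, 6.85% are shared with annotated genes on the other strand, which were at a mean of 0.211 and 0.141 FPKM. The strand setting of the counting is not given in the sources used here.

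Among the proteins bound along actin, *Cnn1*, calponin 1, a marker of differentiated smooth muscle, was at 8.87, 10.8 and 12.4 FPKM in Ctrl testes 1 to 3, against 8.85, 6.13 and 11.2 FPKM in cKO testes 1 to 3. The groups overlapped, since cKO 3 lay above Ctrl 1 and Ctrl 2, and cKO 2 was the lowest sample. Its log2 fold change, -0.29 ± 0.21 (SE), had an adjusted p of 0.527 in limma. It was -0.08 without cKO 2, -0.19 without Ctrl 3 and -0.47 without cKO 3.

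*Tpm2*, a beta tropomyosin that winds along the actin filament, was at 31.0, 32.8 and 37.1 FPKM in Ctrl testes 1 to 3, against 28.3, 28.3 and 49.8 FPKM in cKO testes 1 to 3. Here cKO 1 and cKO 2 lay under all Ctrl samples and cKO 3 above them all. The means hid this, with a log2 fold change of 0.03 ± 0.22 (SE) and an adjusted p of 0.964 in limma. Without cKO 3 the log2 fold change was -0.24, with an adjusted p of 0.359.

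*Tagln*, transgelin or SM22 alpha, an actin-bundling protein often used as a smooth muscle marker, was the lowest of the 10 genes. It was at 1.90, 2.62 and 1.36 FPKM in Ctrl testes 1 to 3, against 1.69, 1.08 and 2.12 FPKM in cKO testes 1 to 3, from 36 to 99 reads per sample. The groups overlapped throughout, with a log2 fold change of -0.17 ± 0.21 (SE) and an adjusted p of 0.728 in limma. Single libraries moved this value, to -0.0083 without cKO 2, -0.011 without Ctrl 2, -0.30 without cKO 3 and -0.32 without Ctrl 3. Of its 1988 exon bases, 67.9% are shared with opposite-strand genes. These are 1241 bases with *Gm48529*, at a mean of 0.449 FPKM, and 108 bases with *Pcsk7*, at a mean of 5.07 FPKM. Without a known strand setting, reads of these genes cannot be told apart there, and the level of *Tagln* is uncertain.

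*Lmod1*, leiomodin 1, which nucleates actin filaments in smooth muscle, was at 5.16, 7.10 and 6.60 FPKM in Ctrl testes 1 to 3, against 4.38, 6.04 and 7.15 FPKM in cKO testes 1 to 3. The cKO samples spanned the Ctrl range on both sides. This gave a log2 fold change of -0.10 ± 0.18 (SE), at an adjusted p of 0.815 in limma, and it was 0.06 without cKO 1, -0.02 without Ctrl 2, -0.07 without Ctrl 3, -0.22 without Ctrl 1 and -0.23 without cKO 3.

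*Des*, desmin, the muscle intermediate filament protein, was the one contractile gene whose cKO samples all lay above Ctrl. It lies at chr1:75360329-75368579 on the plus strand. *Des* was at 14.1, 10.8 and 13.9 FPKM in Ctrl testes 1 to 3, against 15.4, 15.2 and 20.8 FPKM in cKO testes 1 to 3. The highest Ctrl sample, Ctrl 1, and the lowest cKO sample, cKO 2, lay close to each other. Its log2 fold change, 0.38 ± 0.15 (SE), had an adjusted p of 0.30 in limma, and it was 0.24 without cKO 3. Of its exon bases, 5.86% are shared with an annotated gene on the other strand, at a mean of 0.081 FPKM.

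**Figure D2:**
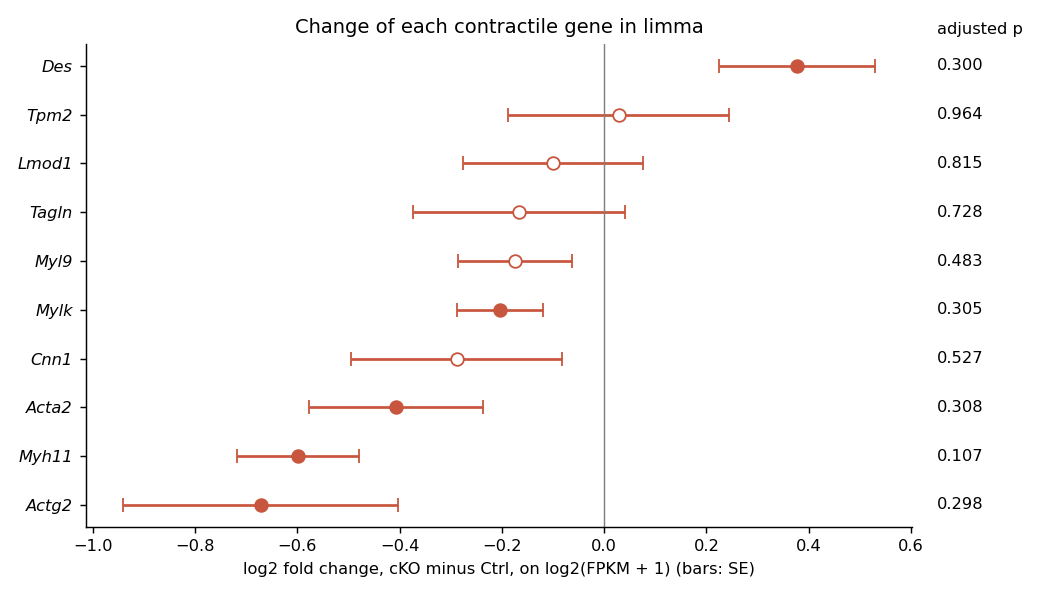
Log2 fold change of each contractile gene, cKO minus Ctrl, on log2(FPKM + 1) (x axis) with its SE as a bar, and the adjusted p from limma at the right. Filled points have an unadjusted p under 0.05, which holds for *Actg2*, *Myh11*, *Acta2* and *Mylk* below 0 and *Des* above 0, and no adjusted p is under 0.107.

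The order of the levels in Ctrl was *Acta2*, *Myl9*, *Tpm2*, *Myh11*, *Mylk*, *Actg2*, *Des*, *Cnn1*, *Lmod1* and *Tagln*. *Acta2* and *Myl9* stood far above the others, with a 10.4-fold step from *Myl9* to *Tpm2*. The Ctrl ranges of neighbours overlapped for *Tpm2* and *Myh11*, *Myh11* and *Mylk*, *Actg2* and *Des*, and *Des* and *Cnn1*. In cKO, *Myh11* lay under *Mylk* at 0.866 of its level and *Actg2* under *Des* at 0.511 of its level, without overlap of the cKO ranges. The cKO ranges of *Acta2* and *Myl9* overlapped, which the Ctrl ranges did not.

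The cKO testes differed among themselves in these genes in a shared order. The sample cKO 3 was the highest of the cKO samples for 9 of the 10 genes, where this held for 39.2% of all tested genes, with *Mylk* as the exception. The sample cKO 2 was the lowest for 8 of the 10 genes, against 33.2% of all genes, and cKO 1 was the lowest for *Mylk* and *Lmod1*. The order with cKO 3 highest and cKO 2 lowest held for 8 of the 10 genes, against 21.7% of all genes. In the median contractile gene, cKO 3 lay 0.41 above the mean of cKO 1 and cKO 2 on the log2 scale, against 0.013 in the median of all genes. As shares of the Ctrl mean in cKO 1, 2 and 3, *Acta2* stood at 71.3%, 61.6% and 97.4%, *Actg2* at 52.3%, 42.8% and 89.8%, and *Tpm2* at 84.3%, 84.2% and 148%. *Myh11*, at 64.4%, 62.0% and 66.6%, did not show this gap. The sample cKO 3 was within or above the Ctrl range for 6 of the 10 genes, and cKO 1 and cKO 2 were so for 2 genes each. The shares of all tested genes were not computed for these counts, so they are description only.

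The spread was compared by the SD of log2(FPKM + 1) within each group. It was larger among cKO than among Ctrl for 7 of the 10 genes, against 48.2% of all genes, and the median ratio of the SDs was 1.47, against 0.963 over all genes. The exceptions were *Myh11*, *Mylk* and *Tagln*. *Acta2* had an SD of 0.02 in Ctrl and 0.34 in cKO, and *Tpm2* had 0.13 and 0.46. The larger spread held for 7 of the 10 genes without cKO 1, for 6 without cKO 2 and for 4 without cKO 3. These counts set fewer cKO than Ctrl samples side by side, and the shares of all genes were not computed for them.

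**Figure D3:**
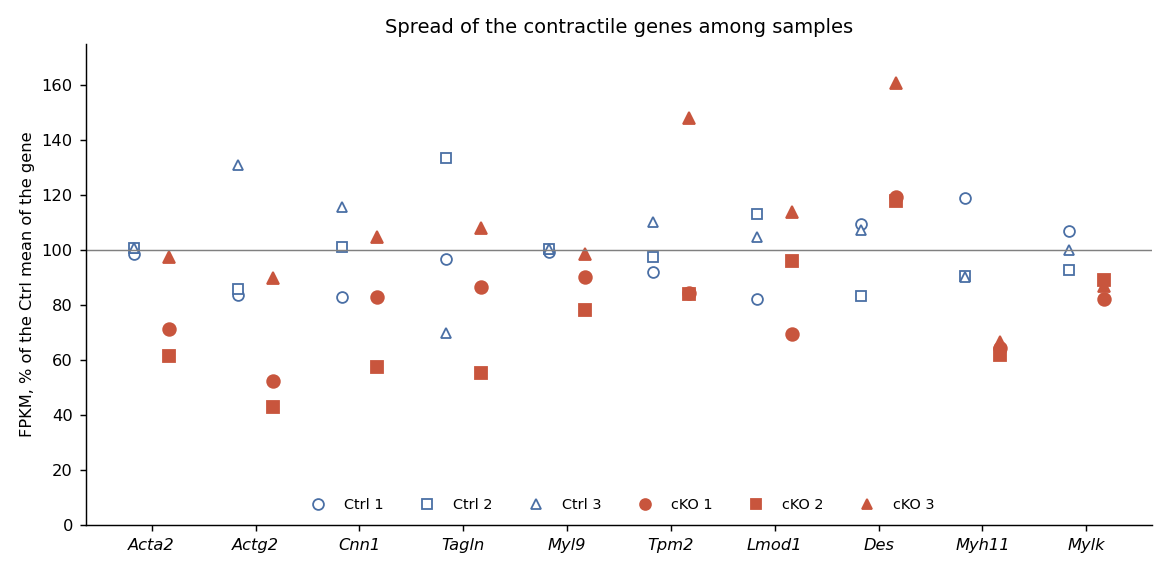
FPKM of each contractile gene in each sample as a percentage of the Ctrl mean of that gene (y axis), with Ctrl samples as open blue and cKO samples as filled red symbols. The cKO 3 triangles lie near or above 100% for most genes while cKO 1 and cKO 2 lie lower, whereas *Myh11* has all cKO samples between 62.0% and 66.6%.

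Several values moved with cKO 3. The mesothelium and tunica markers *Upk3b*, *Msln* and *Lrrn4* were at 8.40, 6.03 and 1.43 FPKM in cKO 3, at 4.24, 4.79 and 1.02 FPKM in cKO 2 and at 1.78, 1.26 and 0.530 FPKM in cKO 1. In Ctrl, *Upk3b* ranged from 3.40 to 7.44 FPKM, *Msln* from 1.93 to 6.66 FPKM and *Lrrn4* from 0.798 to 1.64 FPKM. Of the 9 mesothelium markers tested, all 9 were highest in cKO 3 among the cKO samples, but cKO 2 was the lowest for 2 of them, unlike in the contractile genes. *Podxl*, *Aldh1a2* and *Bnc1* were lower in cKO without overlap, with log2 fold changes of -0.65, -0.71 and -1.07 and adjusted p of 0.164, 0.116 and 0.156 in limma. The 10 markers summed to between 45.7 and 56.1 FPKM in Ctrl and between 23.9 and 52.5 FPKM in cKO. Likewise all 9 tested markers of epididymal and efferent duct epithelium were highest in cKO 3 among cKO, where *Pax2*, *Pax8* and *Cdh1* were at 0.550, 0.609 and 1.74 FPKM. This list of 12 summed to between 28.1 and 37.1 FPKM in Ctrl and between 14.7 and 29.8 FPKM in cKO. A large part of this sum was *Epcam*, at a mean of 19.6 FPKM in Ctrl, against 8.82 FPKM in cKO, without overlap. Its log2 fold change was -1.09. *Epcam* did not pass the threshold in limma, but its adjusted p was 0.0394 in limma voom and 0.0297 with protein-coding genes only. Of the 9 tested genes of this list, 4 had a log2 fold change below 0 and 5 above 0. Among skeletal muscle markers, *Acta1* was listed at 0 in all Ctrl samples and in cKO 3, *Ckm* lay between 0.126 and 0.764 FPKM and *Myh3* at 0.598 FPKM or less. The 4 markers that passed the minimum were *Mylpf*, between 1.34 and 2.61 FPKM, *Tnni2*, between 0.743 and 2.81 FPKM, *Tnnt3*, between 0.305 and 2.0 FPKM, and *Actn2*, lower in cKO without overlap at a mean of 0.22 FPKM against 0.919. For 3 of these 4, cKO 3 was the highest cKO sample, and the 12 genes of that list summed to between 6.22 and 7.25 FPKM in Ctrl and between 5.76 and 7.56 FPKM in cKO. The median log2 fold changes of the tested genes were -0.20 for mesothelium, 0.04 for duct epithelium and -0.02 for skeletal muscle. The library cKO 3 also leaned toward short genes. Its median deviation from the mean of the other cKO samples was 0.09 on the log2 scale in the shortest of 3 gene length classes and -0.06 in the longest. The library cKO 2 deviated the other way, by -0.06 in the shortest and 0.06 in the longest. With this trend removed, an alternative chosen after the data were seen, 4 genes were lower and 1 higher at an unadjusted p under 0.05, and 8 had the larger spread among cKO. The shares of all genes with the trend removed are not given here. The part of the other markers in the spread was not tested.

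Families were compared next within each sample, because a share of a gene family does not depend on the scaling between libraries. A total of 14 such ratios were computed, chosen after the values were seen. *Acta2* made up 36.2%, 38.8% and 36.3% of the summed FPKM of 6 actins in Ctrl testes 1 to 3, against 32.1%, 29.8% and 33.2% in cKO testes 1 to 3. Here cKO 3 lay with the other cKO samples, although its *Acta2* level, 444 FPKM, was close to Ctrl. In cKO 3 the cytoplasmic actins *Actb* and *Actg1* were at 534 and 345 FPKM, above every Ctrl sample, and they are part of the sum. In cKO 1 and cKO 2, *Actb* was at 410 and 382 FPKM, under every Ctrl sample. The mean share was 37.1% ± 1.44 in Ctrl and 31.7% ± 1.74 in cKO (SD, n = 3 each). *Actg2* made up 1.15% ± 0.277 of the actins in Ctrl and 0.777% ± 0.160 in cKO, also without overlap.

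*Myh11* made up 39.3%, 36.7% and 34.7% of the summed FPKM of 4 myosin heavy chains in Ctrl testes 1 to 3, against 28.5%, 27.7% and 28.2% in cKO testes 1 to 3. Its non-muscle relatives *Myh9* and *Myh10* had log2 fold changes of 0.0017 and -0.10, with adjusted p of 0.995 and 0.610 in limma. *Des* made up 4.15% ± 0.109 of the sum of *Des*, *Vim* and *Synm* in Ctrl and 4.79% ± 0.407 in cKO, without overlap. The ratio of *Des* to *Acta2* was 2.84% ± 0.427 in Ctrl and 4.95% ± 0.414 in cKO, again without overlap. Each share without overlap had a two-sided exact permutation p of 0.1, the smallest that 3 against 3 samples can give, and 0.2 after adjustment over the 14 ratios. The shares of *Tpm2*, *Cnn1*, *Tagln*, *Myl9*, *Mylk* and *Lmod1* in their families overlapped between the groups. Leaving out any 1 sample kept the difference of *Acta2* between -6.18 and -4.47 percentage points, that of *Myh11* between -9.85 and -7.55, and that of *Des* between 0.51 and 0.88.

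**Figure D4:**
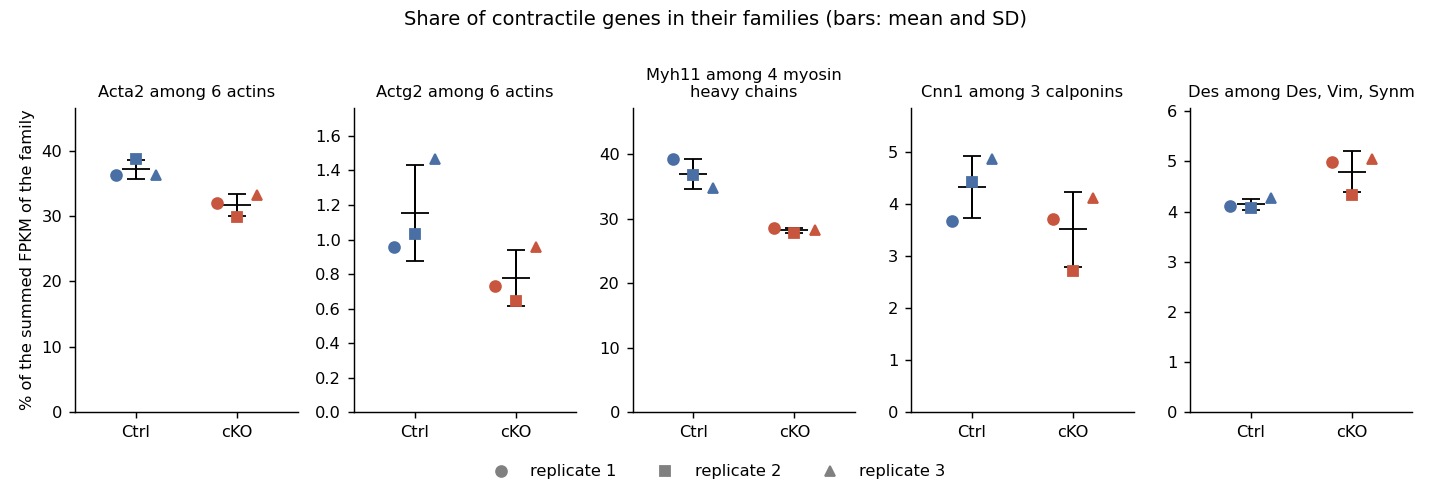
Share of a contractile gene in the summed FPKM of its family, in percent (y axes, each from 0), per sample with mean and SD for Ctrl (blue) and cKO (red). *Acta2*, *Actg2* and *Myh11* have lower and *Des* has higher shares in every cKO sample than in any Ctrl sample, whereas *Cnn1* overlaps.

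The 28 paralogues of the contractile genes, many of which non-muscle cells or other muscles use, had a median log2 fold change of 0.016 over the 22 tested. None passed the test in either direction. *Tpm1*, *Myl6* and *Synm* are also among the further structural genes of smooth muscle listed below. None had an unadjusted p under 0.05. The cytoplasmic actins *Actb* and *Actg1* were at a mean of 465 and 294 FPKM in Ctrl, against 442 and 296 FPKM in cKO. *Cnn2*, *Cnn3*, *Tpm1*, *Tpm3*, *Tpm4*, *Myl6*, *Myl12b*, *Tagln2*, *Vim*, *Synm*, *Mylk3*, *Tmod2*, *Tmod3* and *Tmod4* had log2 fold changes between -0.08 and 0.19, and their groups overlapped. *Myl12a* was at 0.30, also with overlap. Groups without overlap were those of *Myh14*, lower in cKO at 0.903 FPKM against 1.18, and of *Tagln3* and *Mylk2*, higher at 0.784 and 0.707 FPKM against 0.296 and 0.417. *Acta1*, *Actc1*, *Mylk4*, *Lmod2*, *Lmod3* and *Tmod1* fell under the minimum.

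Other genes of smooth muscle contraction were read from 4 lists, and 0 of their tested genes passed an adjusted p of 0.05 in limma. Of the 25 further structural genes, 22 were tested, with a median of 0.029 and 1 gene lower and 1 higher at an unadjusted p under 0.05. Over all tested genes, 9.31% were lower and 6.6% higher at this p, so these 2 do not stand out. The lower one was *Itga8*, an integrin subunit of myoid and mesenchymal cells, at a mean of 2.46 FPKM in Ctrl, against 1.66 FPKM in cKO, with an adjusted p of 0.262. The higher one was *Pgm5*, a protein of adherens junctions in muscle, at 2.91 and 4.45 FPKM. *Cryab*, a small heat shock protein that binds desmin, was at a mean of 14.0 FPKM in Ctrl, against 11.3 FPKM in cKO, with overlap. In this list cKO 3 was the highest cKO sample for 15 of 22 genes.

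Of the 25 genes of calcium signalling and light chain regulation, 21 were tested, with a median of 0.025. *Rgs5*, a regulator of G protein signalling in pericytes, was the only one with an unadjusted p under 0.05, where 6.6% of all tested genes were higher. It was higher in cKO at 13.2 FPKM against 10.5, without overlap and with an adjusted p of 0.233. *Ppp1r14a*, the inhibitor of myosin light chain phosphatase, was at a mean of 20.8 FPKM in Ctrl, against 26.3 FPKM in cKO, with overlap. *Atp2a2*, the calcium pump of the sarcoplasmic reticulum, was at 38.8 and 45.0 FPKM, without overlap.

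Of the 20 receptors and ligands that act on smooth muscle, 12 were tested, with a median of 0.14. At an unadjusted p under 0.05, 2 were lower and 2 higher, beside 9.31% and 6.6% of all tested genes. With 12 genes such counts are too small to set this list apart. *Edn1*, endothelin 1, was at 12.0, 16.2 and 13.4 FPKM in Ctrl testes 1 to 3, against 10.2, 10.4 and 8.26 FPKM in cKO testes 1 to 3. Its receptor *Ednrb* was at a mean of 5.01 FPKM in Ctrl, against 3.58 FPKM in cKO. Neither gene overlapped between the groups, with adjusted p of 0.176 and 0.171 in limma. The thromboxane receptor *Tbxa2r* was at a mean of 8.53 FPKM in Ctrl, against 11.7 FPKM in cKO, and the angiotensin receptor *Agtr2* at 54.9 and 70.2 FPKM, both without overlap.

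Of the 20 transcription factors and cofactors of smooth muscle genes, all 20 were tested, with a median of 0.044. *Fhl2*, a cofactor of serum response factor, was lower in cKO at 71.3 FPKM against 84.3, without overlap and with an adjusted p of 0.259. *Myocd*, myocardin, the coactivator of serum response factor in smooth muscle, was also lower without overlap, at 0.823 FPKM against 1.15, with a log2 fold change of -0.23 and an adjusted p of 0.431. *Tead3* was at a mean of 4.41 FPKM in Ctrl, against 5.43 FPKM in cKO, without overlap, and *Foxo4* at 12.8 and 14.6 FPKM, with overlap.

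**Figure D5:**
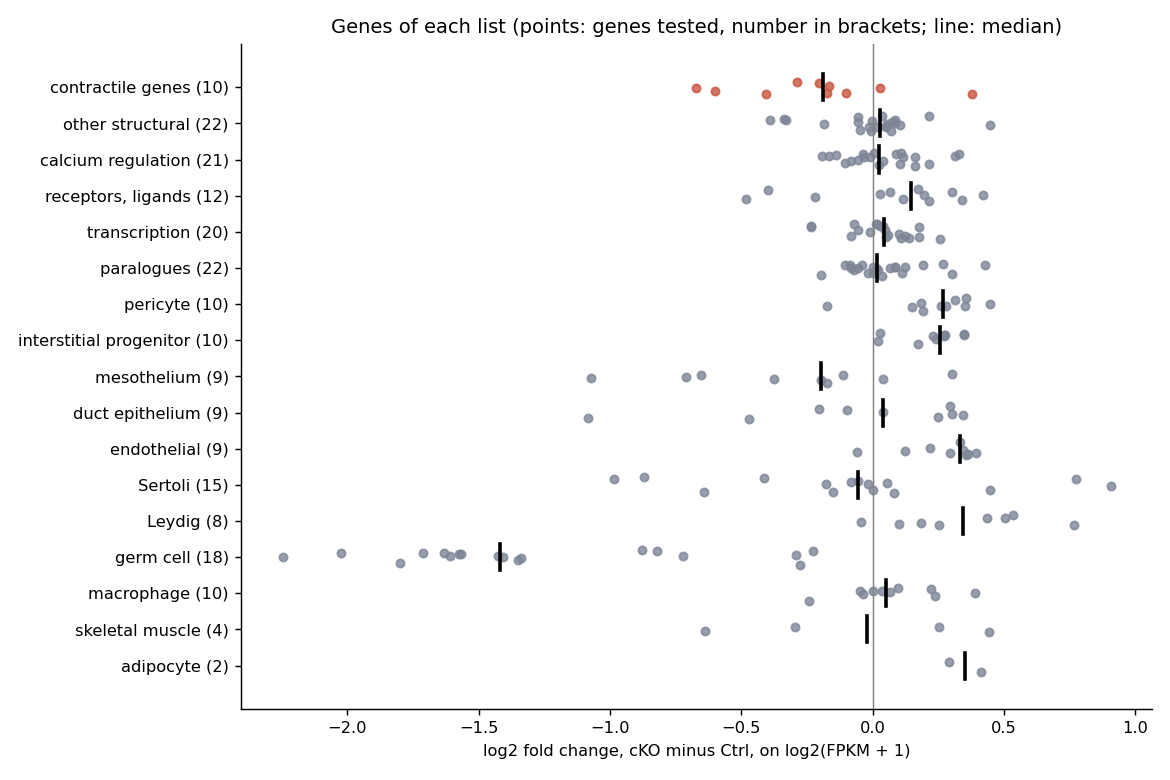
Log2 fold change, cKO minus Ctrl, on log2(FPKM + 1) (x axis) of each tested gene (points) by list, with the median of each list as a black line and the number of tested genes in brackets. The contractile genes (red) have a median of -0.19, the other smooth muscle lists and the paralogues lie between 0.016 and 0.14, and the germ cell markers have a median of -1.42. Some genes are in more than a single list, such as *Tpm1*, *Myl6* and *Synm* among the structural genes and the paralogues.

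Markers of the other cell types that a testis can hold were read in the same samples. The 10 markers of pericytes and vascular mural cells, which also make desmin and alpha smooth muscle actin, had a median of 0.27 and summed to between 81.9 and 91.9 FPKM in Ctrl and between 88.5 and 98.0 FPKM in cKO. Among them *Rgs5* and *Notch3* were higher in cKO without overlap, and *Mcam* overlapped. Endothelial markers, with *Pecam1*, *Cdh5* and *Kdr*, had a median of 0.33, and interstitial progenitor markers, with *Pdgfra*, *Dcn* and *Lum*, 0.26. Leydig cell markers, with *Cyp11a1*, *Cyp17a1* and *Hsd3b1*, had a median of 0.35, and the 2 tested adipocyte genes, among them *Plin1* but not *Adipoq* and *Cidec*, 0.35. Sertoli cell markers, with *Sox9*, *Amh* and *Gata1*, and macrophage markers, with *Adgre1*, *Csf1r* and *Cd68*, had medians of -0.05 and 0.05. The Sertoli cell genes went both ways, with 4 of 15 lower and 1 higher without overlap, beside 12.8% and 10.3% of all tested genes. Among them were *Gata1*, *Cldn11* and *Dmrt1* at log2 fold changes of -0.87, -0.99 and -0.64 and *Amh* at 0.77. The paper also names DMRT1 among transcription factors of spermatogonial stem cells. Each of these lists had 0 genes past the threshold in limma. In the Sertoli cell list 2 genes passed with protein-coding genes only and 1, *Gata1*, in limma voom with an adjusted p of 0.039. Their part in the values of the contractile genes was not tested.

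The members also varied together across the samples to different degrees. Over the 6 samples, *Acta2* followed the mean z score of the other 9 genes with a Pearson coefficient of 0.975, *Myl9* with 0.909 and *Actg2* with 0.903. *Cnn1* followed with 0.826 and *Tpm2* with 0.655. *Myh11*, *Tagln*, *Lmod1* and *Mylk* had between 0.389 and 0.492, and *Des* had -0.16. These coefficients describe 6 libraries that share a normalisation, and no test was made of them. The 10 genes most like the mean of the members, among 8810 genes of at least 5 FPKM, were *Tdg*, *Rbl1*, *Slc25a39*, *Gtf3c5*, *Twf1*, *Ap1m1*, *Vps45*, *Hmgn5*, *Tmem14c* and *Srsf2*, with coefficients from 0.997 down to 0.982 and from 0.971 to 0.995 within groups.

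The upstream sequence was searched because *Acta2* and *Myl9* varied together. In RefSeq windows of the 250 bases before the transcription start (GRCm38.p6), found for 7 of the 10 members, the CArG box was sought, the element bound by serum response factor, with CC and GG around 6 bases of A or T. A looser form allowed 1 other base among the 6. The looser form was in the windows of *Acta2* and *Myl9* and in no window of *Cnn1*, *Des*, *Tpm2*, *Mylk* and *Lmod1*, and 8.59% of 32851 mouse windows held it. The strict form was in the window of *Myl9* alone, and 1.47% of all windows held it. *Actg2*, *Myh11* and *Tagln* had no window and were not searched. Of the genes that followed the other members closely, *Actg2* (0.903) was thus not searched, and *Cnn1* (0.826) had no box. Whether the boxes go with the shared pattern was not tested. The boxes are printed with 10 bases on each side, 5′ to 3′ on the strand of the gene, with the box in capitals. The *Acta2* boxes are at chr19:34255438-34255467 and chr19:34255388-34255417 on the minus strand, with flanks included, and the *Myl9* boxes at chr2:156775293-156775322 and chr2:156775355-156775384 on the plus strand.
Acta2, upstream box: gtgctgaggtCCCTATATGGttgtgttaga
Acta2, box nearer the start: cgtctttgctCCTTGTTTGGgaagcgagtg
Myl9, upstream box, strict form: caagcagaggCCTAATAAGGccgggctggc
Myl9, box nearer the start: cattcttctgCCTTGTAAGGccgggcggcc

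The MCAT element, CATTCC or GGAATG on the other strand, was in 3 of the 7 windows, those of *Acta2*, *Mylk* and *Lmod1*, and in 12.6% of all windows. GENCODE release 21, unlike RefSeq, models an exon of *Acta2* across both of its boxes. These matches are letters in a window and not measured binding.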

How the data were processed

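RNA of 6 whole testes was analysed. Per the methods, the authors aligned reads of poly(A) RNA to mm10 with HISAT2 2.0.5, counted them per gene with featureCounts, tested counts with DESeq2 and deposited FPKM. The annotation release and strand setting are not given in the sources used here. In every sample, 100% of the deposited FPKM times gene length were whole multiples of 1 read (within 0.01), and the FPKM carried median-of-ratios scaling. Here limma 3.58.1 (R 4.3.3) was run on log2(FPKM + 1), which understates changes of low genes, on the 16206 genes averaging at least 0.5 FPKM, with 2 groups, a mean-variance trend, two-sided p-values, Benjamini-Hochberg adjustment and a threshold of 0.05. The test was tried on simulated data.

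The members and gene lists were chosen with earlier results of these data known. Named were the members, *Srsf1*, the paralogues, in each of the other smooth muscle lists the genes past the threshold and the 3 with the largest change at a mean of at least 1 FPKM, the first 3 genes of each marker list (1 list is not reported here) and the 10 genes most like the members. *Agtr2*, *Pcsk7*, *Gm48529*, *Myocd*, *Mylpf*, *Tnni2*, *Tnnt3*, *Actn2*, *Podxl*, *Aldh1a2*, *Bnc1*, *Epcam*, *Cldn11* and *Dmrt1* were named after their values were seen. Alternatives were other pseudocounts, filters, scalings and tests and leaving out each sample. Removing a gene length trend and the family shares were added after the data were seen. Read depth limits low genes, and counting error alone is covered by read numbers.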

Additional observations from a re-analysis of the deposited data

How the results depend on the processing

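The median log2 fold change of the contractile genes lay between -0.28 and -0.11 over all alternatives, and 0 contractile genes passed the threshold except 1, *Myh11*, with protein-coding genes only. The numbers of all genes called lower and higher, 0 and 0 in limma, were 1 and 4 in TPM, 0 and 1 with no mean-variance trend, 176 and 37 with protein-coding genes only, and 61 and 22 in limma voom on recovered reads. Leaving out 1 sample, 0 to 15 genes were lower and 0 to 3 higher, with 15 and 3 without Ctrl 2 and 2 and 3 without Ctrl 3. The replicate numbers were not shown to pair the samples, since deviations of same-numbered samples correlated with 0.066, 0.016 and 0.088. With the replicate block, 84 genes were lower and 14 higher. *Srsf1* passed the threshold at -0.86 in TPM (adjusted p of 0.036), -0.85 with the replicate block (0.033), -0.85 with protein-coding genes only (0.016) and -0.86 in limma voom (0.025). Leaving out 1 sample, *Tpm2* lay between -0.24 and 0.16, with its sign changed to -0.03 without Ctrl 1 and -0.24 without cKO 3, and *Lmod1* lay between -0.23 and 0.065, with its sign changed without cKO 1. Between 4 and 8 contractile genes had the larger spread among cKO when 1 sample was left out, with 4 without cKO 3. With no filter, 2 contractile genes were lower at an unadjusted p under 0.05, and 3 in limma voom, and the shares of all genes in these fits are not given here. The causes of these shifts were not tested.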
